A study of Mus musculus with 8 samples.

Results

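RefSeq noncoding RNA genes are described here: genes whose transcripts RefSeq lists as RNA that is not translated. They were chosen by probe. A non-control probe of the array was taken when the accession it was designed on has RefSeq's prefix for noncoding RNA (NR_), and it was kept when the scanner software marked both arrays of some group, 1 of the 4 or more, as well above background for it. Of 1426 such probes, which stand for 1269 genes, 559 probes passed, and they stand for 494 genes. Where a gene had several kept probes (51 genes), the brightest stood for it. The share of probes that passed was 39.2%, against 54.5% of the 55681 non-control probes of the whole array. RefSeq's present gene table gave 460 of the 494 genes a symbol and listed 330 of those as long noncoding RNAs, 103 as transcribed pseudogenes, 16 as protein coding genes and 11 as other kinds. Every gene had a value on all 8 arrays, 384 were well above background on all of them, and 15 were well above background on neither untreated array. A gene that passed only through the group where it was bright had to differ between groups, so the counts below describe the genes that passed, not noncoding genes at large. Just inside the rule, 53 probes passed through 1 group, and their highest level on any array lay between -4.36 and 0.39 with a median of -3.38. Just outside it, 289 probes were above background on 1 or more arrays without passing, and their highest levels lay between -6.43 and -0.20 with a median of -4.24. A level is the log2 of the processed signal minus the log2 of that array's 75th percentile, so that a probe at the 75th percentile has the level 0 and a difference of 1 is a 2-fold change. Levels of different probes are not set against each other.

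The cells were mouse embryonic stem cells (ESCs), the self-renewing cells of the early embryo. All 4 groups grew with LIF, a cytokine that sustains ESCs, and with 250 nM PD173074, which blocks FGF receptors. One group had no further treatment. In the others 250 nM 4OHT (4-hydroxytamoxifen) was present for 8 h or for 10 h, or its 8 h were followed by 2 h with 1 µM of the MEK kinase blocker PD0325901. Each group had 2 arrays, which the study calls biological replicates. 4OHT is widely used to switch on proteins that carry a modified hormone receptor. The labels give no name for such a protein, no clone or strain, and not whether 4OHT stayed in the medium with PD0325901. No group received PD0325901 or a vehicle alone. The 8 arrays lay on 1 slide, where the row was the replicate number and the column was the group, so that slide column and treatment cannot be told apart. All 10 ESC markers (such as Pou5f1, Sox2 and Nanog) were well above background on every array. Limma called 2 of them higher and 2 lower at 8 h, and 2 higher and 3 lower at 10 h. With PD0325901 it called 1 higher and 3 lower against 10 h, and 2 higher and 3 lower against untreated cells. The 10 primitive endoderm markers were all kept, none was called in any comparison, and they were higher on replicate 1 than on replicate 2 by a median of 1.45. Of 10 fibroblast markers 5 were kept (Col3a1, Dcn, Lum, Postn and Twist2 were not), and the summed linear level of the 5 was 3.70 and 2.53 in untreated cells and between 13.9 and 41.2 in the treated groups. By limma 1 of the 5 was called higher at 8 h, 1 at 10 h, and 1 with PD0325901 against 10 h. These counts do not say whether it was the same marker. At 10 h 2 of the 5 were called lower. The part of these markers in the results below was not tested. In bulk RNA, fewer cells that express a gene and less RNA per cell cannot be told apart.

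Long noncoding RNAs are transcribed and processed much as messenger RNAs are, and several act at their own locus, on the expression of a neighbouring gene, or serve as the precursor of small RNAs cut from their introns or exons. Others are scaffolds of nuclear bodies. Small structural RNAs belong to the machinery of splicing, ribosome maturation and telomere synthesis. In ESCs, signalling through MEK and its substrate kinase ERK moves cells out of self-renewal, and its immediate targets include transcription factors and inhibitors of the pathway itself.

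The first comparison asks which noncoding RNAs differed after 8 h of 4OHT. Of the 494 genes, 35 rose and 37 fell (limma, Benjamini-Hochberg adjusted over all kept probes, adjusted p under 0.05), which is 14.6%. The background, all 30335 probes tested in that comparison, was 20.2% called. At 10 h, 47 rose and 64 fell, 22.5% against a background of 26.3%. Between 10 h and 8 h no gene was called by limma (background 0%), while 36 of the 494 had an unadjusted p under 0.05. So had 1976 of all 30335 probes tested in that comparison. The 8 h and 10 h comparisons share the untreated arrays, so their values are given side by side below. The median difference of the 494 genes was -0.07 at 8 h and -0.11 at 10 h, against -0.03 and -0.04 over all kept probes. At least 2-fold rises that passed the test numbered 16 at 8 h and 18 at 10 h, and such falls 15 and 26. The background shares above have no fold cut, so they cannot be set beside these counts. With the replicate number as a block the counts were 48 higher and 63 lower at 8 h, and 71 higher and 101 lower at 10 h. With each array centred on its median in place of the 75th percentile, 42 rose and 20 fell at 8 h, and 84 rose and 35 fell at 10 h, so the balance between rises and falls depended on the centring. All kept probes shifted the same way, to 3930 higher and 1845 lower at 8 h, and 6266 and 2309 at 10 h. With normexp background correction in place of the scanner's, 75 of the 157 called differences of genes chosen for naming were smaller by over 1.5 times, 1 was larger by as much, and none changed sign. The 8 h total fell to 47 when untreated replicate 2 was left out and to 39 when 4OHT 8h replicate 2 was. The 10 h total fell to 71, 69, 71 and 60 without untreated replicate 1, untreated replicate 2, 4OHT 10h replicate 1 and 4OHT 10h replicate 2. By RefSeq class, 25 of 330 long noncoding RNAs rose and 27 fell at 8 h, and of 103 transcribed pseudogenes 7 rose and 4 fell.

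**Figure D1:**
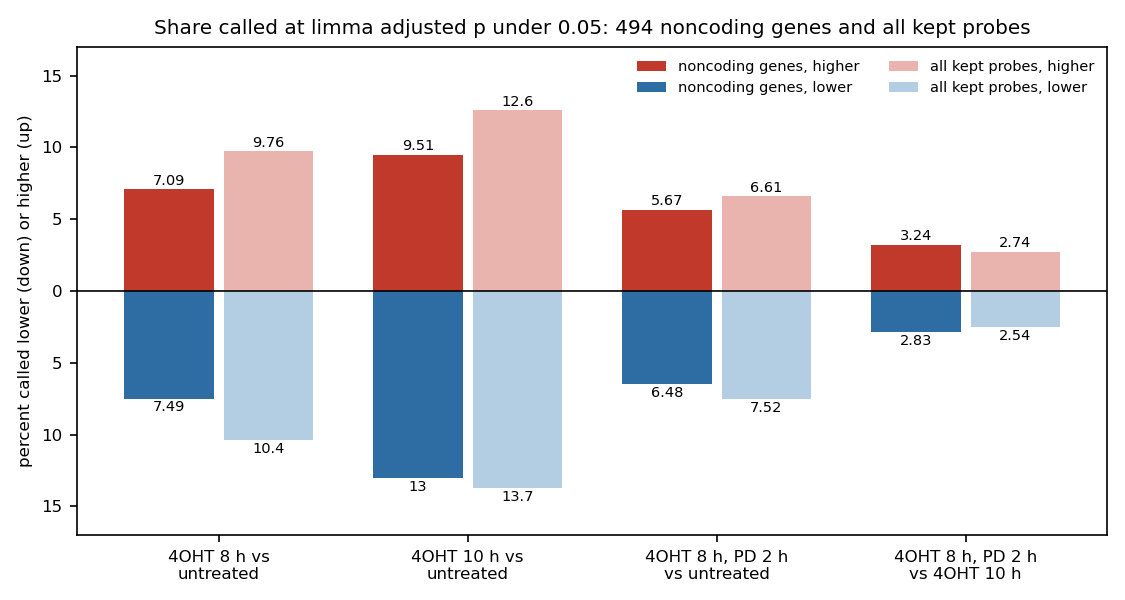
Percent of the 494 noncoding genes (dark bars) and of all kept probes (pale bars) called higher (up, red) or lower (down, blue) in 4 comparisons, at a limma adjusted p under 0.05. At 8 h 7.09% of the noncoding genes were higher and 7.49% lower, against 9.76% and 10.4% of all kept probes.

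The largest rise was that of Morrbid, a long noncoding RNA next to Bcl2l11, which codes for the cell death protein BIM. Its levels were -5.54 and -6.00 in untreated cells, -1.71 and -1.89 at 8 h, -1.35 and -1.41 at 10 h, and -2.23 and -2.44 after PD0325901. Both untreated values were not well above background, and every treated array lay above them. The rise is therefore a bound: Morrbid was at least 8.07-fold higher at 8 h (adjusted p = 0.0003) and at least 10.8-fold higher at 10 h (adjusted p = 0.00017). A bound sets the mean of the brighter group against the lowest signal well above background on each array of the dimmer group, or the probe's own signal there if that is higher. The adjusted p beside a bound, here and below, is limma's for the fitted difference. That fit uses the probe's own values in the dimmer group, and the bound itself was not tested. A830052D11Rik, a long noncoding RNA that overlaps Bin1, followed the same course. Its levels were -5.84 on both untreated arrays, again not well above background, -2.49 and -2.26 at 8 h, and -1.96 and -1.72 at 10 h. It was at least 5.42-fold higher at 8 h (adjusted p = 0.00027) and at least 7.84-fold higher at 10 h (adjusted p = 0.00015). Its levels after PD0325901 were -2.81 and -2.68, between the untreated and the 10 h arrays.

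Further rises were measured on both sides. 4933408N05Rik had levels of -3.70 and -3.00 in untreated cells, -0.60 and 0.01 at 8 h, and -0.37 and 0.21 at 10 h. It rose by 3.06 ± 0.34 (SE) at 8 h and 3.27 ± 0.34 at 10 h on the log2 scale (adjusted p = 0.0036 and 0.0024). 1700029M20Rik went from -2.91 and -3.06 in untreated cells to -0.29 and -0.73 at 8 h and -0.55 and -0.88 at 10 h, a rise of 2.48 ± 0.19 and 2.27 ± 0.19. 4930444M15Rik went from 1.37 and 1.30 to 3.54 and 3.41 at 8 h and 3.54 and 3.39 at 10 h. Its 2 untreated arrays lay close together and far below all treated arrays, and the rise was 2.14 ± 0.13 at 8 h (adjusted p = 0.00066). Gm10941, which overlaps Pofut2 on the opposite strand, rose by 1.91 ± 0.18 and 2.14 ± 0.18. 4933439C10Rik, which overlaps Zkscan17 on the opposite strand, rose by 2.11 ± 0.29 and 2.06 ± 0.29. 5730416F02Rik, a transcribed pseudogene, rose by 1.58 ± 0.11 and 1.88 ± 0.11. A pseudogene's probe can also bind the transcript of its parent gene, which this array cannot separate. The 8 h and 10 h calls of the 8 genes named in this paragraph and the one before, Morrbid to 5730416F02Rik, were made in every fit with 1 array left out.

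The 7 measured Platr genes, pluripotency-associated transcripts first listed for their expression in ESCs, did not move as a group. At 10 h 2 of them rose and 2 fell, which is 57.1% against a background of 26.3%, and their median difference was 0.20. Platr5 rose from -1.14 and -0.83 to 0.70 and 1.10 at 8 h and 0.99 and 1.38 at 10 h (2.17 ± 0.25 at 10 h, adjusted p = 0.0031). Platr8, at -5.06 and -4.47 on the untreated arrays, was not well above background there, and stood at -2.98 and -2.86 at 8 h and -2.89 and -3.06 at 10 h. It was at least 3.35-fold higher at 8 h (adjusted p = 0.0043) and at least 3.22-fold higher at 10 h (adjusted p = 0.0038). Platr10 fell, from 2.18 and 2.43 to 1.71 and 1.83 at 10 h (-0.54 ± 0.12, adjusted p = 0.024). Without 3 of the 8 arrays, taken 1 at a time, the Platr10 call was lost, with the largest adjusted p, 0.106, without 4OHT 10h replicate 1. Platr21 had 1.45 and 1.93 in untreated cells and 0.05 and 0.69 at 10 h. Its fall of -1.32 ± 0.37 (adjusted p = 0.047) was lost without 6 of the 8 arrays, with an adjusted p of 0.178 without untreated replicate 2, and with the replicate block it was also called at 8 h (adjusted p = 0.0042). Eprn, an ESC-expressed long noncoding RNA outside that naming scheme, had a like pattern, with 2.02 and 2.46 in untreated cells and 0.53 and 1.29 at 10 h. Its fall of -1.33 ± 0.34 (adjusted p = 0.039) was lost without 5 of the 8 arrays, with an adjusted p of 0.155 without untreated replicate 2, and with the replicate block it was also called at 8 h (-0.95, adjusted p = 0.012).

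The promoters of 3 risen genes are shown. They were picked from the 5 genes risen at 8 h whose 300-base windows, from 250 bases before to 50 after the RefSeq start, hold an AP-1 motif. They do not stand for the other risen genes. Capitals mark TGANTCA, the motif of AP-1 factors, and CCGGAAG, a motif of ETS factors. The sequences are RefSeq's, of the build GRCm38.p6, each on its gene's strand and written 5′ to 3′. Morrbid lies on the minus strand at chr2:128429302-128429601, Platr5 on the plus strand at chr1:88754640-88754939, and Mirt1 on the minus strand at chr19:53464747-53465046.
Morrbid: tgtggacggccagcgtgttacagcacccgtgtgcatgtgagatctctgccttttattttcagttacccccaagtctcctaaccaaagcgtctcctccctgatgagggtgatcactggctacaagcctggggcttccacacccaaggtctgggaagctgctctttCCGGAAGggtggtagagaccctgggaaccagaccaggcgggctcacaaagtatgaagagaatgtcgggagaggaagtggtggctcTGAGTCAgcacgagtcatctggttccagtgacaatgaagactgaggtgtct
Platr5: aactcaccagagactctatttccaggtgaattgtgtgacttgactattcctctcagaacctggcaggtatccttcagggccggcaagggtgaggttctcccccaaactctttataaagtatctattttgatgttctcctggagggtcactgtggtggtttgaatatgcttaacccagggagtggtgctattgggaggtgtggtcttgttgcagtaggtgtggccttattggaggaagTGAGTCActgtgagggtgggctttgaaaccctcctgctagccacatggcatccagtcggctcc
Mirt1: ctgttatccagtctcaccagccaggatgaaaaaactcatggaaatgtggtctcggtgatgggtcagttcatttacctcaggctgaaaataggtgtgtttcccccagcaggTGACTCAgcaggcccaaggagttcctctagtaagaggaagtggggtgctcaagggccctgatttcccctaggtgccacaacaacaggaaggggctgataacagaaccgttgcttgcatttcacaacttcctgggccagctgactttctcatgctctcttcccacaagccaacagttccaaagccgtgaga
Of the 494 genes 280 had a promoter in the table, with 312 windows. The motif TGANTCA, searched on both strands, lay in a window of 5 of the 22 genes that rose at 8 h, none of the 24 that fell, and 14 of the 234 not called. At 10 h it lay in 4 of the 24 risen, 2 of the 40 fallen and 13 of the 216 not called. It was held by 8.97% of all 27025 genes that have a promoter there, and by 6.79% of the 280. The motif CCGGAAG lay in a window of 3 of the 22, 1 of the 24 and 29 of the 234, and in 9.93% of all genes. The cyclic AMP motif TGACGTCA lay in 0 of the 22, 3 of the 24 and 7 of the 234 (2.03% of all genes), and the E-box CACGTG in 2, 4 and 25 (8.09%). The CArG box, the motif of serum response factor, lay in 0, 2 and 3 (1.81%). No motif searched contains another. A match is a description of these letters and was not tested as a site.

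One of the fallen genes had no symbol in the table, and its levels were -0.92 and -1.24 in untreated cells, -5.08 and -5.60 at 10 h, and -2.56 and -2.63 after PD0325901. At 10 h 1 of its 2 arrays was well above background, and its 10 h difference was -4.26 ± 0.19 (adjusted p = 0.00025). Gm11627 fell from 2.74 and 2.54 in untreated cells to 0.45 and 0.53 at 8 h and -0.36 and -0.30 at 10 h. Its groups did not overlap, and the fall was -2.15 ± 0.10 at 8 h and -2.97 ± 0.10 at 10 h (adjusted p = 0.0004 and 0.00015). Vax2os, transcribed against the homeobox gene Vax2, fell from 2.29 and 2.17 to -0.20 and -0.30 at 8 h and -0.59 and -0.87 at 10 h (-2.48 ± 0.14 and -2.96 ± 0.14). Its second, dimmer probe fell too, by -1.02 and -1.27 (adjusted p = 0.028 and 0.011). Gm5091 fell from -0.12 and -0.23 to -2.66 and -2.69 at 8 h and -2.86 and -3.35 at 10 h. Gm9895 fell by -2.30 ± 0.14 at 8 h and -2.12 ± 0.14 at 10 h, and Gm13580 by -1.74 ± 0.21 and -2.09 ± 0.21. D930028M14Rik, which overlaps the transcription factor gene Pou2f2 on the opposite strand, fell by -1.76 ± 0.24 and -2.20 ± 0.24, and 1 of its 2 arrays at 10 h was not well above background. The 8 h and 10 h calls of these 6 genes with a symbol were made in every fit with 1 array left out. 1500009C09Rik was less even: its levels were -0.40 and -0.60 in untreated cells, -2.68 and -1.34 at 8 h and -2.69 and -2.72 at 10 h. Its 8 h difference of -1.51 ± 0.41 had an adjusted p of 0.053 (0.048 with the replicate block). The 10 h fall of -2.21 ± 0.41 (adjusted p = 0.014) was lost without 4 of the 8 arrays, with an adjusted p of 0.0715 without untreated replicate 1.

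**Figure D2:**
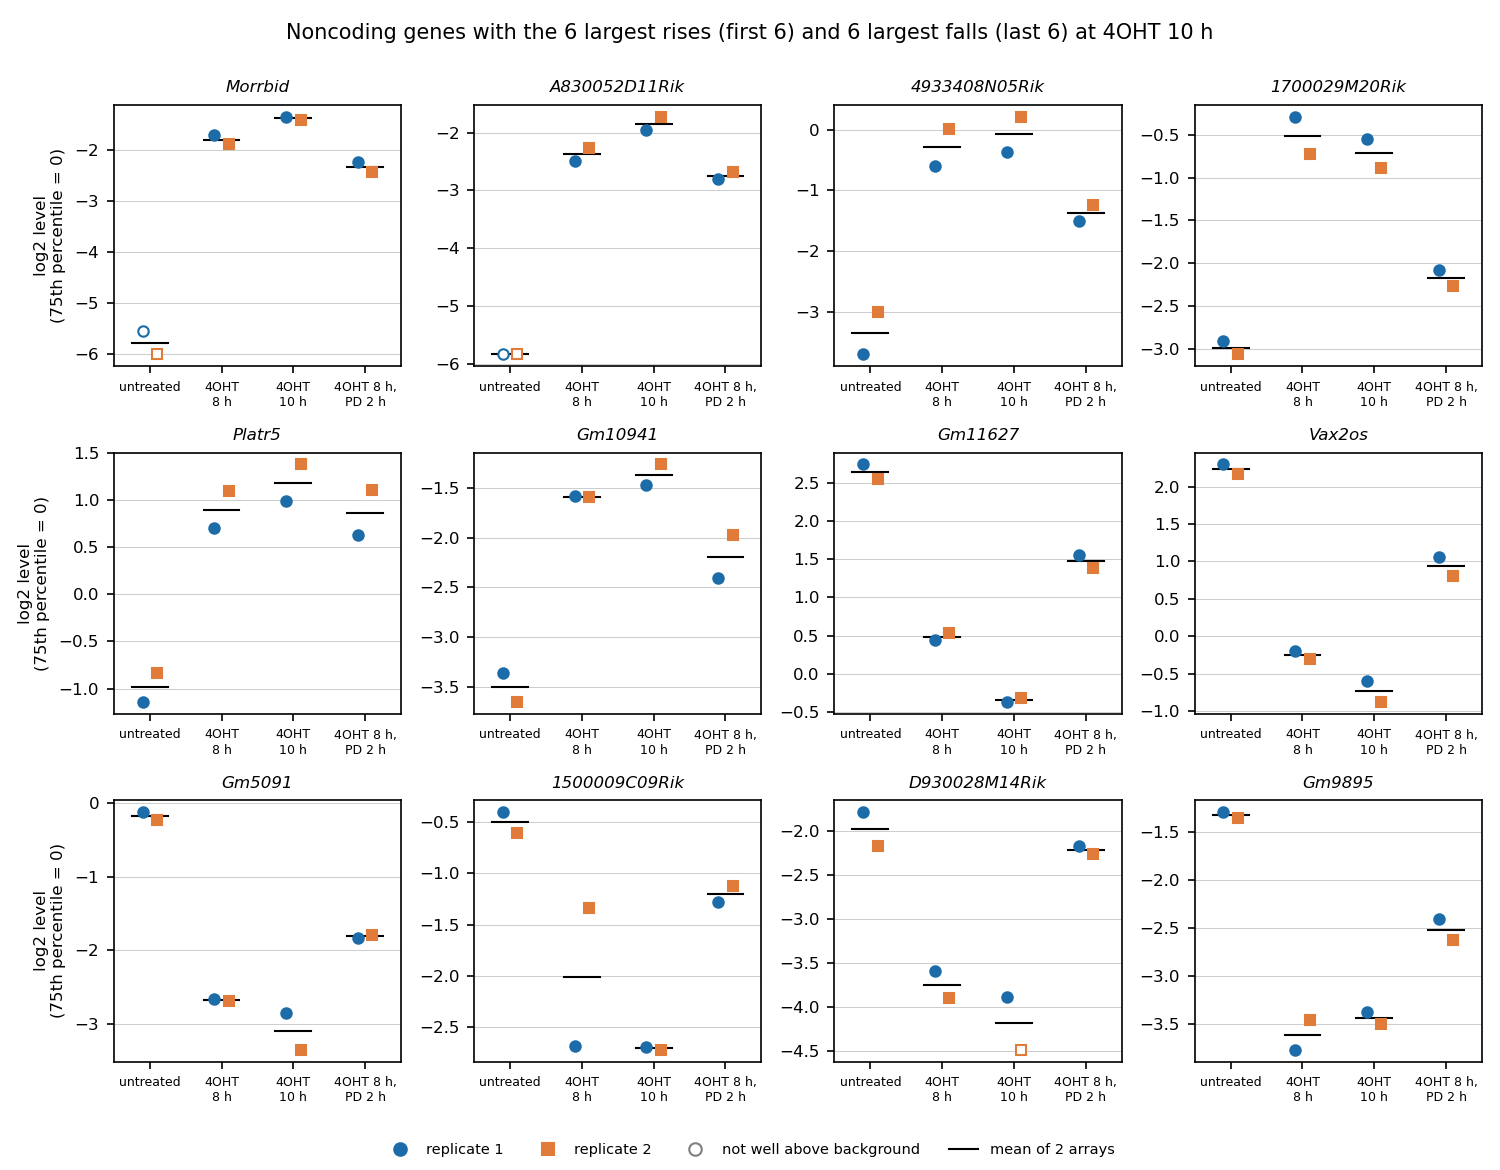
Level (log2 of processed signal, with the array's 75th percentile at 0) of the 6 noncoding genes with a symbol that had the largest called rises and the 6 that had the largest called falls at 4OHT 10 h, in each of the 4 groups; each panel has its own scale. Points are single arrays, circles for replicate 1 and squares for replicate 2, open where not well above background, and bars are means; Morrbid rises from -5.54 and -6.00 to -1.35 and -1.41, and Gm11627 falls from 2.74 and 2.54 to -0.36 and -0.30.

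Opposite-strand RNAs are named for a gene they are transcribed against. Of 25 measured, 0 rose and 2 fell at 8 h, and 1 rose and 4 fell at 10 h, which is 8% and 20% against backgrounds of 20.2% and 26.3%, with a median difference of -0.38 at 10 h against -0.04 over all kept probes. Frs3os, against the gene of the FGF receptor substrate Frs3, fell from 0.16 and 0.52 to -1.37 and -1.35 at 8 h and -1.45 and -1.47 at 10 h (-1.70 ± 0.12 and -1.80 ± 0.12, adjusted p = 0.0011 and 0.00072). Foxl2os had levels of -2.73 and -3.00 in untreated cells and -3.62 and -3.94 at 10 h. Its fall of -0.92 ± 0.24 (adjusted p = 0.0405) was lost without 6 of the 8 arrays, with an adjusted p of 0.169 without 4OHT 10h replicate 2, and with the replicate block it was called at 8 h as well (adjusted p = 0.0056). Rab10os rose by 0.52 ± 0.10 at 10 h (adjusted p = 0.015), a call lost without 3 arrays, with an adjusted p of 0.0734 without 4OHT 10h replicate 1. Map2k3os, against the kinase gene Map2k3, had a 10 h difference of -0.38 ± 0.11 (adjusted p = 0.055, and 0.0498 with the block). Lockd, a long noncoding RNA just downstream of Cdkn1b, the gene of the cell cycle inhibitor p27, fell from 0.20 and 0.35 to -1.26 and -1.29 at 8 h and -1.38 and -1.53 at 10 h. Its fall was -1.54 ± 0.09 at 8 h and -1.73 ± 0.09 at 10 h (adjusted p = 0.00066 and 0.00038).

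MicroRNA host transcripts are long RNAs from which microRNAs are cut. Among the 494 genes 11 held 1 or more hairpins of RefSeq's table on their own strand, with 46 mature microRNAs. A gene's strand was read from its promoter entry, so hosts could be found only among the 280 genes that have one. The table is not complete, and a member's level is that of the host RNA, not of its microRNAs, which this array did not measure. The mature sequences shown are those of the 6 host genes called in some comparison here, with 1 to 3 microRNAs for each, written 5′ to 3′ with U, from RefSeq with the build GRCm38.p6. Capitals mark the seed, bases 2 to 8, which pairs with a messenger RNA.
miR-294-3p of D7Ertd143e: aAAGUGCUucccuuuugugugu
miR-295-3p of D7Ertd143e: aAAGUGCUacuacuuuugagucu
miR-291b-3p of D7Ertd143e: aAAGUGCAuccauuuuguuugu
miR-9-5p of Mir9-3hg: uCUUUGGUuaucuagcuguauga
miR-22-3p of Mir22hg: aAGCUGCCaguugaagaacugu
miR-16-5p of Dleu2: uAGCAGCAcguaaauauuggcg
miR-453 of Mirg: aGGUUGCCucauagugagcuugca
miR-496a-5p of Mirg: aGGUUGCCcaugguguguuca
miR-433-3p of 6430411K18Rik: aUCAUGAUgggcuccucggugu
miR-294-3p and miR-295-3p share the seed AAGUGCU, and miR-453 and miR-496a-5p share GGUUGCC.

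D7Ertd143e carries a microRNA cluster that is abundant in ESCs. Its levels were 4.38 and 4.90 in untreated cells, 5.21 and 5.23 at 8 h, 5.42 and 5.22 at 10 h, and 3.47 and 3.80 after PD0325901. The 4OHT arrays were the highest and the PD0325901 arrays the lowest, with no overlap between those groups. The differences with 4OHT did not pass the test (0.58 ± 0.20 at 8 h, adjusted p = 0.11, and 0.67 ± 0.20 at 10 h, adjusted p = 0.059). After PD0325901 the host RNA was lower than at 10 h of 4OHT by -1.68 ± 0.20 (3.21-fold, adjusted p = 0.013). It was lower than in untreated cells by -1.01 ± 0.20 (adjusted p = 0.030). A second probe of this gene gave 0.85 at 8 h (adjusted p = 0.0498) and -2.13 for PD0325901 against 10 h (adjusted p = 0.0091). The PD0325901 call of the main probe was lost without 4 of the 8 arrays, taken 1 at a time, with the largest adjusted p, 0.0736, without replicate 1 of the PD0325901 group, and the call against untreated cells was lost without 7.

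Mir9-3hg, host of a copy of miR-9, a microRNA of neural progenitors, fell from -1.36 and -1.40 to -2.16 and -2.69 at 8 h and -2.79 and -3.25 at 10 h. The 10 h fall was -1.64 ± 0.22 (adjusted p = 0.0055), and it was called in every fit with 1 array left out. The 8 h fall of -1.04 ± 0.22 (adjusted p = 0.027) was lost without 5 arrays, with an adjusted p of 0.108 without untreated replicate 1. Mir22hg rose from -3.72 and -3.60 to -2.91 and -2.86 at 8 h (0.77 ± 0.12, adjusted p = 0.011), a call lost without 3 arrays, with an adjusted p of 0.0662 without 4OHT 8h replicate 2. Mirg and 6430411K18Rik lie in the imprinted Dlk1-Dio3 region, where noncoding RNAs are transcribed from the maternal chromosome. Mirg rose from 2.96 and 3.06 to 3.74 and 3.70 at 8 h and 3.88 and 3.70 at 10 h (0.71 ± 0.09 and 0.78 ± 0.09, adjusted p = 0.0054 and 0.0033). 6430411K18Rik rose by 0.53 ± 0.10 and 0.62 ± 0.10 (adjusted p = 0.022 and 0.010), and lost the 8 h call without 4 arrays (adjusted p up to 0.0973, without 4OHT 8h replicate 1) and the 10 h call without untreated replicate 2 (adjusted p = 0.0516). Dio3, the coding gene beside them, fell at the same times by -3.92 ± 0.17 and -3.47 ± 0.17. Of the 6 imprinted noncoding RNAs of the list used, Mirg was the 1 called at 8 h and at 10 h. That is 16.7% at each time, against backgrounds of 20.2% and 26.3%. Airn (-0.34 ± 0.15 at 10 h), which is transcribed against Igf2r, and Kcnq1ot1 (-0.79 ± 0.24 at 10 h) did not pass the test. With the replicate block Airn did (adjusted p = 0.031). Mir17hg, host of miR-92a-3p among others, had a 10 h difference of 0.59 ± 0.20 (adjusted p = 0.088, and 0.042 with the block). Dleu2, host of miR-16-5p, had levels of -1.60 and -1.51 in untreated cells and -2.15 and -1.88 at 10 h. Its fall of -0.46 ± 0.11 (adjusted p = 0.034) was lost without 7 of the 8 arrays, with an adjusted p of 0.127 without untreated replicate 2.

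**Figure D3:**
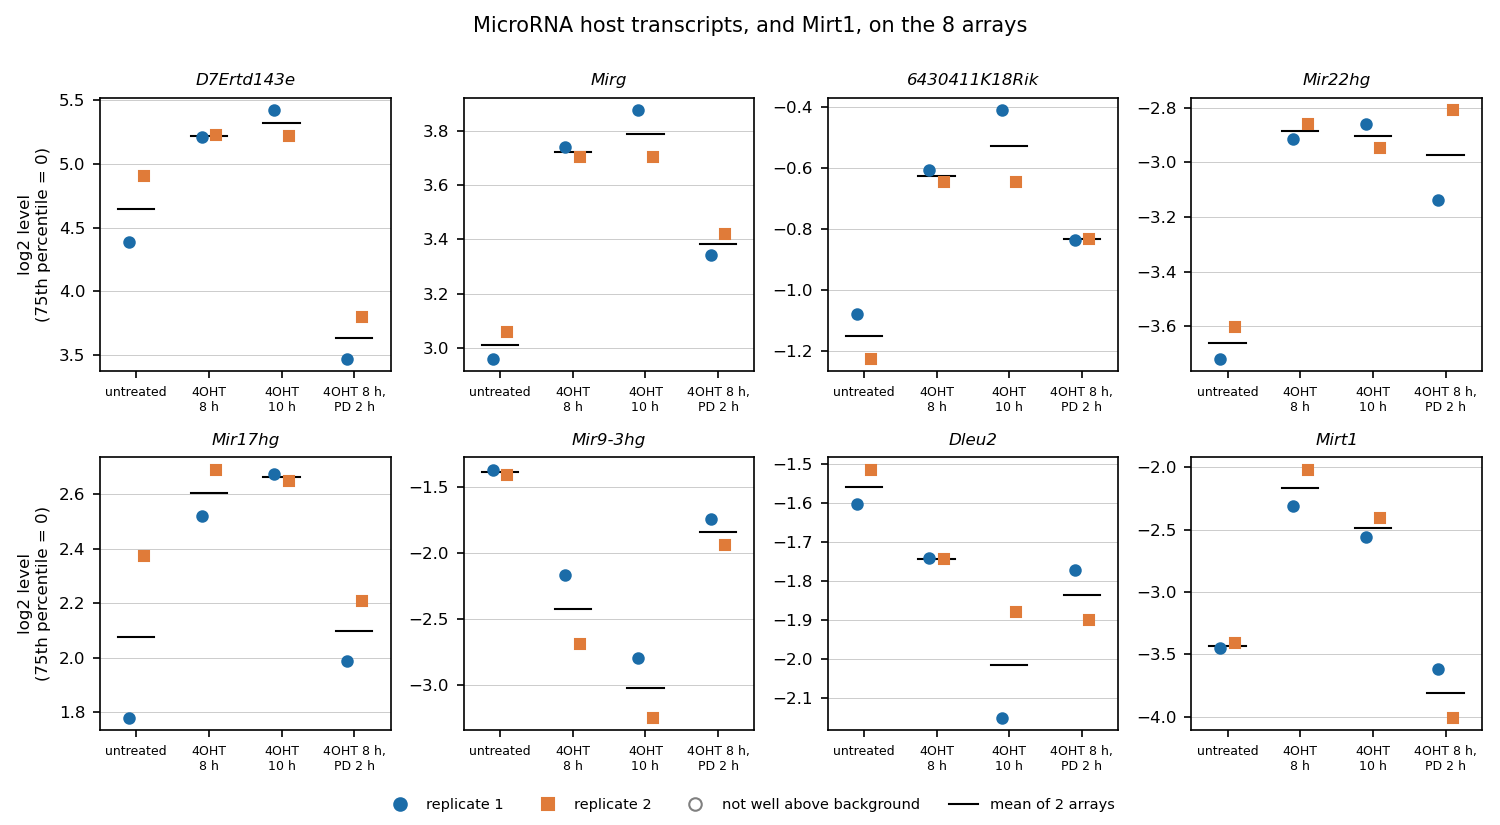
Level (log2 of processed signal, with the array's 75th percentile at 0) of 7 microRNA host transcripts and of Mirt1 in the 4 groups; each panel has its own scale. Points are single arrays, circles for replicate 1 and squares for replicate 2, and bars are means of 2 arrays; D7Ertd143e stands at 3.47 and 3.80 after PD0325901, below its levels in every other group.

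Of 5 widely expressed long RNAs, 1 was called at 8 h and 2 at 10 h, 20% and 40% against backgrounds of 20.2% and 26.3%, and Pvt1 was called at both times. It rose from 0.17 and 0.23 to 1.22 and 1.04 at 8 h and 1.23 and 1.04 at 10 h (0.93 ± 0.11 at both, adjusted p = 0.0040 and 0.0032), while its second probe gave 0.31 at both times and was not called. Neat1, the scaffold of nuclear paraspeckles, had 2.39 and 2.28 in untreated cells and 3.57 and 2.96 at 10 h. Its rise of 0.93 ± 0.23 (adjusted p = 0.032) was lost without 5 of the 8 arrays, with an adjusted p of 0.122 without untreated replicate 2. Malat1, a speckle-associated RNA, differed by -0.26 ± 0.18 at 10 h and Norad by 0.21 ± 0.14, and neither passed the test, although Norad did with the replicate block (adjusted p = 0.041). The brightest probe of Tug1 gave 0.28 ± 0.14 at 8 h and was not called, while another of its 3 probes rose by 0.60 (adjusted p = 0.0062). Of 12 hosts of small nucleolar RNAs, 2 rose and 1 fell at 10 h, which is 25% against a background of 26.3%, with a median difference of 0.14. Dancr rose from 2.86 and 3.18 to 3.46 and 3.46 at 10 h (0.44 ± 0.12, adjusted p = 0.044), and Snhg1 by 0.25 ± 0.07 (adjusted p = 0.047). Without 7 and 8 of the arrays, taken 1 at a time, those calls were lost, with adjusted p of 0.149 without 4OHT 10h replicate 2 for Dancr and 0.169 without 4OHT 10h replicate 1 for Snhg1. Snhg18 fell by -1.17 ± 0.27 (adjusted p = 0.028), lost without 4 arrays, with an adjusted p of 0.115 without untreated replicate 2. Snhg3 and Snhg12 differed by 0.36 ± 0.16 and 0.06 ± 0.12 and did not pass the test (for Snhg3 the adjusted p was 0.020 with the block). Of 9 small structural RNAs, the spliceosomal RNA genes Rnu1b6 (0.54 ± 0.15, adjusted p = 0.044) and Rnu2-10 (0.26 ± 0.07, adjusted p = 0.043) rose at 10 h, and none fell, which is 22.2% against a background of 26.3%. Both calls were lost when single arrays were left out, Rnu1b6 without 6 (adjusted p = 0.16 without untreated replicate 2) and Rnu2-10 without any 1 of the 8 (adjusted p = 0.19 without 4OHT 10h replicate 2). Terc, the telomerase RNA, differed by -0.17 ± 0.08 at 10 h, and Rmrp, the RNA of RNase MRP, by 0.39 ± 0.13 (adjusted p = 0.082, and 0.016 with the block). Ftx, of the X inactivation centre, differed by 0.06 ± 0.22, and Xist, Jpx and Firre had no kept probe.

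The comparison with PD0325901 asks which noncoding RNAs differed when MEK was inhibited for the last 2 h, against 10 h of 4OHT without it. Of the 494 genes 16 were higher and 14 lower (limma adjusted p under 0.05), 6.07% against a background of 5.28%. With the replicate block 35 were higher and 30 lower, beside 1820 and 1609 of all 30336 kept probes. The total of 30 fell to 13 and 8 without 4OHT 10h replicates 1 and 2, and to 11 and 7 without replicates 1 and 2 of the PD0325901 group. Among 103 transcribed pseudogenes 1 was called, and among 330 long noncoding RNAs 27 were. Against untreated cells 28 genes were higher and 32 lower after PD0325901, 12.1% against a background of 14.1% (6.61% higher and 7.52% lower). With the block 37 genes were higher and 67 lower, beside 3299 and 4396 of all 30335 probes tested. With median centring they were 30 and 18, and with quantile normalization 31 and 26, so here too the balance depended on the scaling. All kept probes shifted the same way, to 2331 higher and 1055 lower with median centring, and 2220 and 1962 with quantile normalization. The total of 60 noncoding genes called in the main fit fell to 26 and 28 without untreated replicates 1 and 2, and to 35 and 19 without replicates 1 and 2 of the PD0325901 group.

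The differences of the 8 h comparison with untreated cells and of PD0325901 with 10 h share no arrays, so the genes called in the first can be followed in the second. The calls in both rest on a spread estimated for each probe over all 8 arrays, so they are not independent of each other. Of the 35 genes that rose at 8 h, 32 had a value below 0 with PD0325901 and 12 were called lower, none higher, with a median of -0.47. Of the 37 that fell at 8 h, 31 had a value above 0 and 11 were called higher, none lower, with a median of 0.35. Of the 422 not called at 8 h, 197 were above 0 and 225 below, and 5 were called higher and 2 lower. The shares on those sides of 0 were thus 91.4% of the risen and 83.8% of the fallen noncoding genes. Over all kept probes they were near the same, 91.4% and 85.5%. Of the 2960 kept probes risen at 8 h, 616 (20.8%) were called lower with PD0325901 and 18 higher, with a median of -0.31. Of the 3153 fallen, 608 (19.3%) were called higher and 7 lower, with a median of 0.29. The counts of 12 and 11 fell to 2 and 7 when 4OHT 10h replicate 1 was left out, to 1 and 5 when 4OHT 10h replicate 2 was, to 2 and 5 without replicate 1 of the PD0325901 group, and to 1 and 5 without its replicate 2. They were 7 and 11, and 7 and 9, without 4OHT 8h replicates 1 and 2, 1 and 4 when dim probes were kept, and 1 and 3 when each fit held only the groups compared. With the replicate block 20 of 48 risen genes were called lower and 3 higher, and 22 of 63 fallen genes were called higher and none lower.

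**Figure D4:**
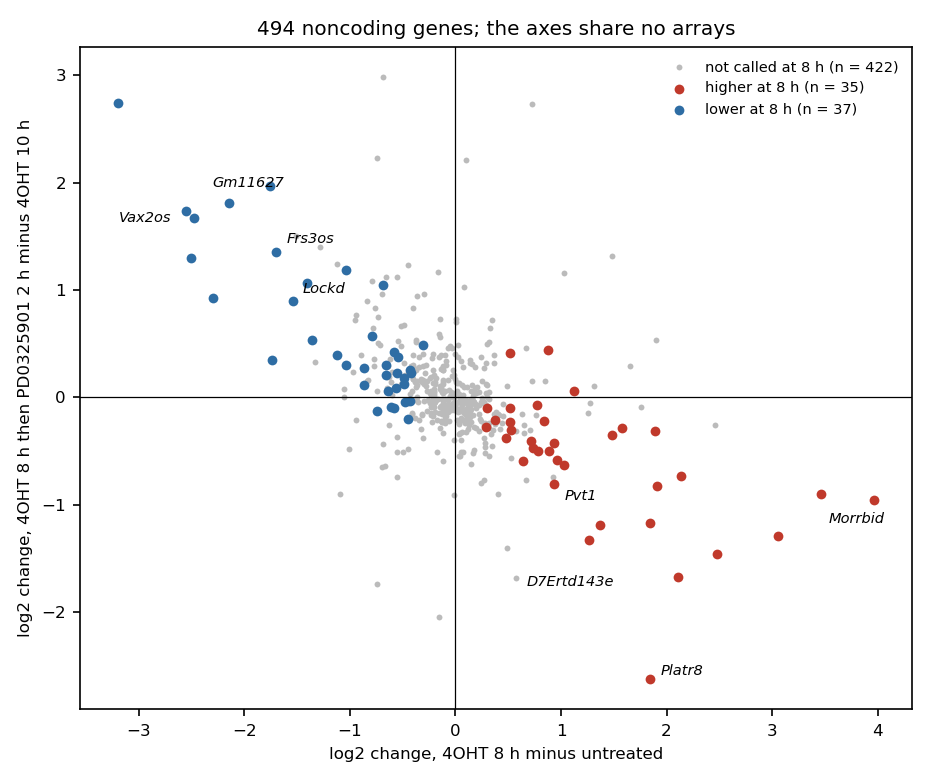
Log2 difference between 4OHT 8 h and untreated cells (x axis) and between 4OHT 8 h followed by PD0325901 2 h and 4OHT 10 h (y axis) for the 494 noncoding genes, 1 point a gene, coloured by the call at 8 h. Of the 35 genes higher at 8 h (red) 32 lie below 0 on the y axis, and of the 37 lower at 8 h (blue) 31 lie above 0. These shares are 91.4% and 83.8%, against 91.4% and 85.5% over all kept probes.

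Among risen genes, Platr8 lay furthest below its 10 h level after PD0325901. It went from -2.89 and -3.06 at 10 h to -5.76 and -5.43, not well above background, and was at least 3.99-fold lower (adjusted p = 0.0046). 1700029M20Rik went from -0.55 and -0.88 to -2.07 and -2.27 (-1.46 ± 0.19, adjusted p = 0.017). Mirt1, a long noncoding RNA named for the infarcted heart and not a microRNA host, had risen from -3.45 and -3.41 in untreated cells to -2.31 and -2.02 at 8 h (1.26 ± 0.17, adjusted p = 0.0060) and -2.56 and -2.41 at 10 h (0.94 ± 0.17, adjusted p = 0.012). After PD0325901 it stood at -3.62 and -4.01, which was -1.33 ± 0.17 against 10 h (adjusted p = 0.014). Both values lay below its untreated levels, but in the fit without the block it was not called against untreated cells. 4931440P22Rik, which overlaps Tiparp, rose by 1.92 ± 0.16 at 10 h and differed by -1.17 ± 0.16 with PD0325901 (adjusted p = 0.020), but its second probe gave -0.25 and 0.00 and was not called. Morrbid (-0.95 ± 0.17, adjusted p = 0.040), A830052D11Rik (-0.90 ± 0.12, adjusted p = 0.018), 4930444M15Rik (-0.73 ± 0.13, adjusted p = 0.037) and 4933439C10Rik (-1.67 ± 0.29, adjusted p = 0.036) were lower than at 10 h. The first 3 of them remained above untreated cells (adjusted p = 0.00078, 0.00047 and 0.0038), and 4933439C10Rik differed from untreated cells by 0.39 ± 0.29 and was not called (adjusted p = 0.416, and 0.041 with the block). Platr5 (-0.32 ± 0.25) and 5730416F02Rik (-0.28 ± 0.11) did not pass the test. 4933408N05Rik (-1.29 ± 0.34) had an adjusted p of 0.10, and 0.0083 with the block. Of these PD0325901 calls, that of Platr8 was made in every fit with 1 array left out. The others were lost without 3 to 8 of the arrays: the largest adjusted p were 0.0919 for 1700029M20Rik, 0.102 for 4931440P22Rik and 0.162 for Morrbid without replicate 2 of the PD0325901 group, 0.0983 for A830052D11Rik without its replicate 1, 0.15 for 4930444M15Rik without 4OHT 10h replicate 1, and 0.0886 for Mirt1 and 0.172 for 4933439C10Rik without 4OHT 10h replicate 2. Mirt1 also lost its 10 h call without 3 arrays, with an adjusted p of 0.0678 without 4OHT 10h replicate 2.

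Among fallen genes, Gm11627 stood at 1.55 and 1.39 after PD0325901, against -0.36 and -0.30 at 10 h and 2.74 and 2.54 in untreated cells. It was higher than at 10 h by 1.81 ± 0.10 (adjusted p = 0.0020) and still lower than in untreated cells by -1.17 ± 0.10 (adjusted p = 0.0036). Vax2os (1.67 ± 0.14, adjusted p = 0.0046) and Frs3os (1.36 ± 0.12, adjusted p = 0.0059) were higher than at 10 h as well, although the dimmer probe of Vax2os differed by 0.17 and was not called. Frs3os, at -0.11 and -0.10, differed from untreated cells by -0.44 ± 0.12, which did not pass the test (adjusted p = 0.071). These 3 calls were made in every fit with 1 array left out. D930028M14Rik went from -3.88 and -4.48 to -2.17 and -2.26 (1.97 ± 0.24, adjusted p = 0.014), near its untreated levels of -1.79 and -2.18. Gm5091 (1.30 ± 0.16, adjusted p = 0.015), Gm9895 (0.92 ± 0.14, adjusted p = 0.023), Lockd (0.89 ± 0.09, adjusted p = 0.0087) and Mir9-3hg (1.18 ± 0.22, adjusted p = 0.045) were also higher than at 10 h. Their calls and that of D930028M14Rik were lost without 2 to 6 arrays: the largest adjusted p were 0.0822 for D930028M14Rik without replicate 1 and 0.0834 for Gm5091 without replicate 2 of the PD0325901 group, and 0.129 for Gm9895, 0.0609 for Lockd and 0.179 for Mir9-3hg without 4OHT 10h replicate 2. Gm13580, which had fallen by -2.09, differed by 0.35 ± 0.21 and was not called. Map2k3os, not called with 4OHT, rose above both other groups: it stood at 0.33 and 0.34 in untreated cells, -0.15 and 0.06 at 10 h, and 0.99 and 0.84 after PD0325901 (0.96 ± 0.11 against 10 h, adjusted p = 0.012; lost without 3 arrays, with 0.0671 without replicate 1 of the PD0325901 group). Gm11110 rose with 4OHT at 10 h and further with PD0325901, from -2.66 and -2.65 to -2.20 and -2.19 and then -1.42 and -1.52 (0.73 ± 0.07 against 10 h, adjusted p = 0.0076). Both of its calls were lost without 4OHT 10h replicate 2 (adjusted p = 0.0538 and 0.0613).

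Noncoding genes often lie beside or across coding genes, so each was set beside its nearest coding gene by RefSeq order where that gene was measured. At 8 h, 28 of the risen noncoding genes had a measured nearest coding gene, which rose in 11 cases and fell in 0, and 26 of the fallen had one, which fell in 12 and rose in 1. Of the 302 noncoding genes not called, the nearest coding gene rose in 44 and fell in 50. At 10 h the nearest coding gene of 40 risen members rose in 18 and fell in 4, and that of 47 fallen members fell in 13 and rose in 2, while beside 269 not called it rose in 50 and fell in 51. For PD0325901 against 10 h, it fell in 5 and rose in 0 beside 11 lower members, and rose in 1 and fell in 0 beside 15 higher ones, while beside 330 not called it rose in 12 and fell in 11. For PD0325901 against untreated cells, it rose in 4 and fell in 2 beside 26 higher members, and rose in 2 and fell in 2 beside 20 lower ones, while beside 310 not called it rose in 28 and fell in 36. The 8 h total of 23 pairs called the same way fell to 12, 12 and 11 without untreated replicate 1, untreated replicate 2 and 4OHT 8h replicate 2. The 10 h total of 31 fell to 16, 15, 20 and 12 without untreated replicates 1 and 2 and 4OHT 10h replicates 1 and 2, and the PD0325901 total of 6 fell to 0 without any 1 of the 4 arrays compared. With the replicate block the 10 h pairs called the same way numbered 48 and those called opposite ways 19, against 31 and 6. A pair that overlaps on the genome can share transcript sequence, which the array does not separate except by probe and strand.

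The pairs described next were picked after their values were seen. Bcl2l11, beside Morrbid on the opposite strand, rose by 2.52 ± 0.23 at 8 h and 2.44 ± 0.23 at 10 h. Bin1, which A830052D11Rik overlaps and which codes for a membrane-bending protein, rose by 3.04 ± 0.13 and 3.42 ± 0.13. Tiparp, overlapped by 4931440P22Rik, rose by 2.07 ± 0.09 at 10 h and differed by -3.00 ± 0.09 with PD0325901. Myc, beside Pvt1, rose by 2.46 ± 0.15 at 10 h and fell with PD0325901 by -5.26 ± 0.15, while Pvt1 differed there by -0.80 ± 0.11 (adjusted p = 0.017, lost without 4 arrays, with 0.0923 without replicate 2 of the PD0325901 group). Dusp5, which codes for an ERK phosphatase, flanks Mirt1 on its other side and rose by 4.39 ± 0.14 at 10 h. Spry2, which codes for an inhibitor of receptor signalling, flanks 4930449E01Rik, rose by 1.86 ± 0.10 at 10 h and differed by -2.94 ± 0.10 with PD0325901. 4930449E01Rik itself rose by 1.03 ± 0.08 (adjusted p = 0.0012) and differed by -0.42 ± 0.08 (adjusted p = 0.052, and 0.043 with the block). Grhl3, beside 1700029M20Rik, rose by 1.34 ± 0.13 at 10 h and differed by -1.30 ± 0.13 with PD0325901. Tsc22d1, beside 4930444M15Rik, rose by 0.96 ± 0.09 and differed by -1.03 ± 0.09.

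Falling pairs were Lockd with Cdkn1b (-1.22 ± 0.18 at 10 h), Gm12409 with the aldehyde dehydrogenase gene Aldh1b1 (-1.37 ± 0.17 and -2.45 ± 0.14), and AW549542 with the transcription factor gene Tbx3 (-0.70 ± 0.13 and -1.98 ± 0.24). With normexp background correction the 10 h differences of Gm12409 and AW549542 were -0.20 (adjusted p = 0.106) and -0.22 (adjusted p = 0.0936) and were not called. The 10 h call of AW549542 was lost without 3 arrays, with an adjusted p of 0.0668 without untreated replicate 1. Some of the largest noncoding changes had no such partner. Gpatch8, nearest to Gm11627, differed by 0.05 ± 0.07 at 10 h, and Vax2, which Vax2os overlaps, by -0.14 ± 0.16. Arl4c, beside Platr5, differed by -0.27 ± 0.12 and was not called. Usp46, beside Dancr on the opposite strand, fell by -0.99 ± 0.10 while Dancr rose, and Trap1a, which Platr21 overlaps on the opposite strand, rose by 0.38 ± 0.09 while Platr21 fell.

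**Figure D5:**
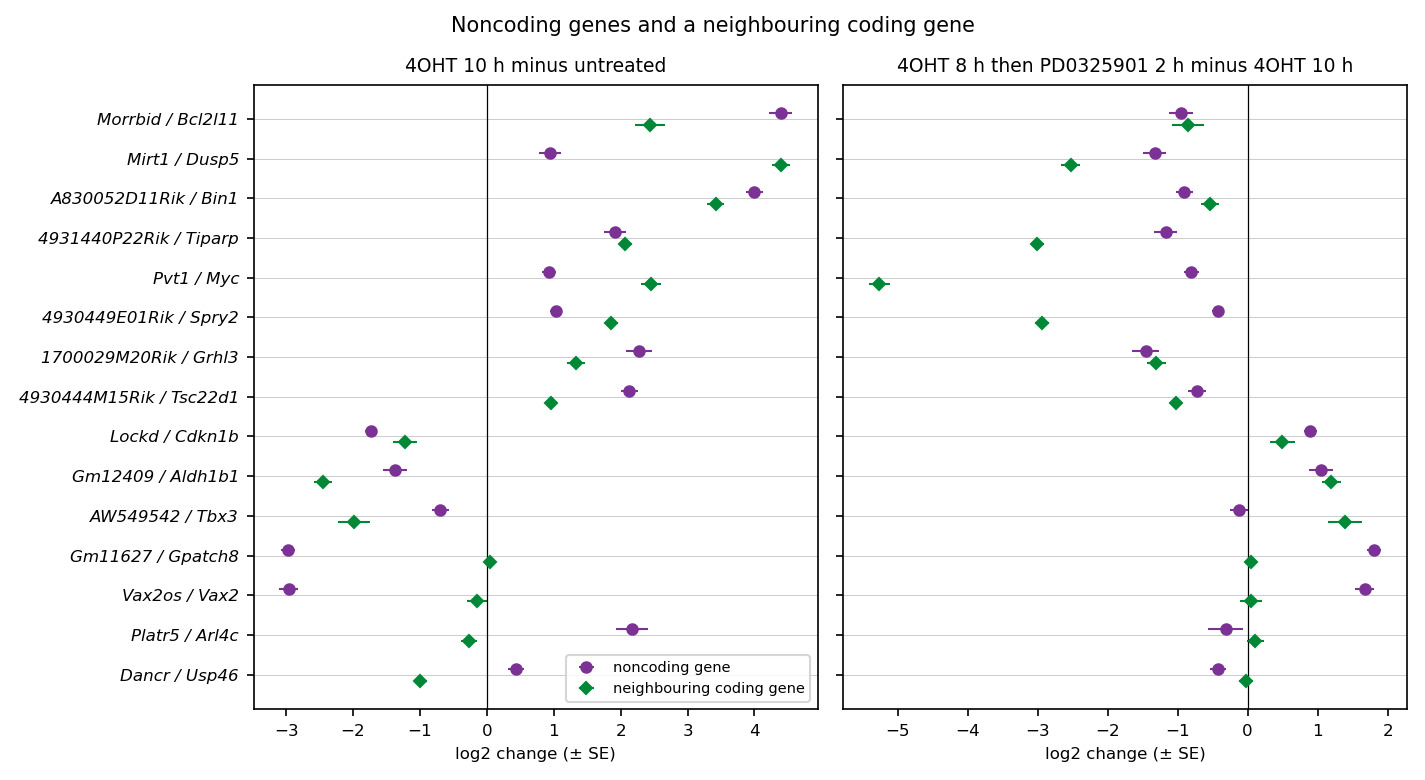
Log2 difference with its SE for 15 noncoding genes (purple circles) and a neighbouring coding gene (green diamonds), for 4OHT 10 h against untreated cells (left) and for 4OHT 8 h then PD0325901 2 h against 4OHT 10 h (right). The upper 8 pairs lie right of 0 for both genes at 10 h, while Gpatch8 and Vax2 lie near 0 (0.05 and -0.14) beside Gm11627 and Vax2os at -2.97 and -2.96.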

How the data were processed

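Total RNA from mouse ESCs was read on 8 single-colour Agilent arrays of design 028005, 2 for each of 4 groups. The deposited scanner tables hold probe intensity: per the file headers, Feature Extraction 11.0.1.1 made the processed signals. A deposited table holds the authors' processed values as intensity, which differ from the scanner values by at most 0.497%. The 75th percentile of processed signal ranged from 309.0 to 392.6 between arrays, 36889 to 37789 spots were well above background on the replicate 1 arrays and 30218 to 31433 on the replicate 2 arrays, and none was saturated. The labels name the dye Cy5 while the files hold Agilent's green channel, and the number of arrays limits the precision.

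Levels were computed as log2 of the deposited processed signal minus each array's 75th percentile, with outlier spots left out and spots of a probe averaged. The 30336 kept probes of the whole array were fitted in limma 3.58.1 (R 4.3.3), with 4 groups sharing the spread, and p-values were adjusted over all kept probes by Benjamini-Hochberg. A ± value is the SE of that fit, with 2 arrays a group. The fit was tested on simulated data. Same-numbered arrays deviated together (correlations of 0.265 to 0.319 in all 6 pairs of groups). The main fit does not use this pairing. An alternative fit, with the replicate number as a block, does. The values reported come from the fit without the block, which was the design set, and the blocked value is given where it changes a call of a gene printed or moves a count by over 1.5 times. Symbols and neighbours came from RefSeq (GRCm38.p6). Genes were named as the 6 largest called rises and falls per comparison, up to 4 called members of each class, and a list of well-known noncoding RNAs. Neighbouring coding genes were named beside their members, and which pairs to print was chosen after their values were seen. The members and lists were chosen with earlier results of these data known. Alternatives changed the normalization, background, filter, block, samples fitted, prior and probe rule, and left out each array in turn.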

Additional observations from a re-analysis of the deposited data

How the results depend on the processing

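With the replicate block the called noncoding genes numbered 111 at 8 h, 172 at 10 h, 65 for PD0325901 against 10 h and 104 for PD0325901 against untreated cells, where the fit without it gave 72, 111, 30 and 60. With no filter on dim probes they numbered 30, 41, 5 and 11. With only the groups compared in the fit they numbered 43 at 8 h, 6 for PD0325901 against 10 h and 27 against untreated cells. Over all probes fitted, the calls also rose with the block and fell with no filter or with only the groups compared. Leaving out 1 array at a time gave 39 to 64 at 8 h, 60 to 107 at 10 h, 7 to 22 for PD0325901 against 10 h, 19 to 54 against untreated cells, and 0 to 0 for 10 h against 8 h. Quantile normalization, normexp background correction, an intensity trend with a robust prior, the other rules for probes and the deposited value table gave totals within 1.5 times. The cause of these differences was not tested, except that a left-out array leaves fewer samples. Of the 157 called differences of named genes none changed sign under a setting that kept all arrays. The call was lost for 86 with no filter, 66 with only the groups compared, 23 with normexp, 20 with median centring and 18 with quantile normalization. With median centring more genes rose than fell at 8 h and 10 h, where fewer did with the 75th percentile. The same held over all kept probes. The probes near background limit what can be seen: 110 of the 494 genes were not well above background on every array.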

Other observations

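For 12 genes the array held a kept probe of a noncoding transcript and a kept probe of a coding transcript. The noncoding transcript of Alg13, an enzyme subunit of protein glycosylation, fell by -1.12 at 8 h (limma adjusted p = 0.00378) and -1.03 at 10 h (adjusted p = 0.00394), while its coding probe differed by 0.20 and 0.16 and was not called. The noncoding probe of Bmp1, a protease that processes procollagen, differed by 0.29 at 8 h and was not called, while its coding probe rose by 1.89 (adjusted p = 0.00276). The noncoding probe of Ccl25, a chemokine gene, differed by -0.30 at 8 h and was not called, while its coding probe fell by -2.29 (adjusted p = 0.00935). Both probes of Tmem80 fell at 8 h, by -0.61 and -0.63. The difference between the probes of a gene was not tested.

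Of the 51 genes with several kept probes, 10 were called at 10 h, where 26.3% of all kept probes were called. Another probe was called the same way in 5 of the 10, and none was called the opposite way. Gm2516 was well above background only on the arrays with PD0325901, at -4.12 and -3.62, and was not called against 10 h (adjusted p = 0.051). Replicate 1 was higher than replicate 2 in all 4 groups for 60 of the 494 genes, and lower in all 4 for 97.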
